A study of Rattus norvegicus with 24 samples.

Results

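The opioid receptor genes Oprm1, Oprk1 and Oprd1 were taken by their Ensembl IDs (ENSRNOG00000018191, ENSRNOG00000007647 and ENSRNOG00000010531). All 3 were listed on the stated chromosomes in each of the 24 count tables, and they are 3 of the 32552 genes listed. The tables came from total RNA of Sprague Dawley rats of both sexes, taken as punches of the nucleus accumbens (NAc, the striatal part of the reward system) or the ventral tegmental area (VTA, the midbrain area whose dopamine neurons project to it). Rats had received fentanyl, a mu receptor agonist, or saline, and per the labels they were killed at the time of what would have been the last choice session. The series title speaks of opioid withdrawal and of a choice between fentanyl and food, and the labels give no age, dose or duration. Each sex had 4 fentanyl and 3 saline NAc libraries, and 3 fentanyl and 2 saline VTA libraries, each from a different rat within its region. The 24 libraries came from 14 rats, of which 10 gave both regions. A punch mixes neurons, glia and any adjoining tissue, so fewer cells that make a receptor and less receptor RNA per cell cannot be told apart.

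The opioid receptors are G protein-coupled receptors of the Gi and Go class, which lower cyclic AMP, open potassium channels and close calcium channels. Oprm1 encodes the mu receptor, the target of fentanyl and morphine. Mu receptors on inhibitory neurons of the VTA are known for releasing dopamine neurons from inhibition. Oprk1 encodes the kappa receptor, whose peptide ligand is dynorphin and which is known for lowering dopamine release in the NAc. Oprd1 encodes the delta receptor, whose main peptide ligands are the enkephalins and which is found on cholinergic interneurons of the striatum.

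NAc libraries had totals of 3.46 M to 5.01 M counts and VTA libraries 4.49 M to 6.30 M counts. Mitochondrial features took 22.1% to 36.7% of these counts in NAc and 17.6% to 26.9% in VTA libraries, and the totals include them. In VTA males they took 21.3% to 25.4% in fentanyl and 17.6% to 18.4% in saline libraries. In VTA females they took 21.4% to 26.9% and 19.4% to 21.0%, while in NAc males the ranges overlapped. A few libraries stood apart. On genes at least 4-fold different between the regions in the other rats, on a scale where 0 is the NAc and 1 the VTA, the NAc library of female fentanyl replicate 2 lay at 0.236, while the other NAc libraries lay from -0.046 to 0.047. The VTA libraries of female fentanyl replicate 2, which is the same rat, and of female saline replicate 2 lay at 0.890 and 0.892, while the others lay from 0.955 to 1.04. Values without these rats are given beside the receptor results that they move most.

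The 3 genes differ in structure. In the coordinates of the deposited tables, whose genome build is not given in the sources used here, Oprm1 lies on the plus strand of chromosome 1 from 43454803 to 43704948. Its 87 annotated exon entries merge into 14 blocks with 5300 exonic nt over 250.1 kb. Oprk1 lies on the minus strand of chromosome 5 from 13744658 to 13760305, with 4 exons, 2582 exonic nt and a span of 15.6 kb. Oprd1 lies on the minus strand of the same chromosome from 150288126 to 150323063, with 3 exons, 1417 exonic nt and a span of 34.9 kb. The Oprm1 span holds or overlaps 4 other listed features, of which 1, ENSRNOG00000018163 on the opposite strand, shares 68 exonic nt with it and had 5 to 75 counts per library. Oprk1 and Oprd1 overlap no listed feature. The sources used here do not give the strand setting or the treatment of reads that align in several places, so reads shared between strands or between similar receptor sequences cannot be told apart.

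**Figure D1:**
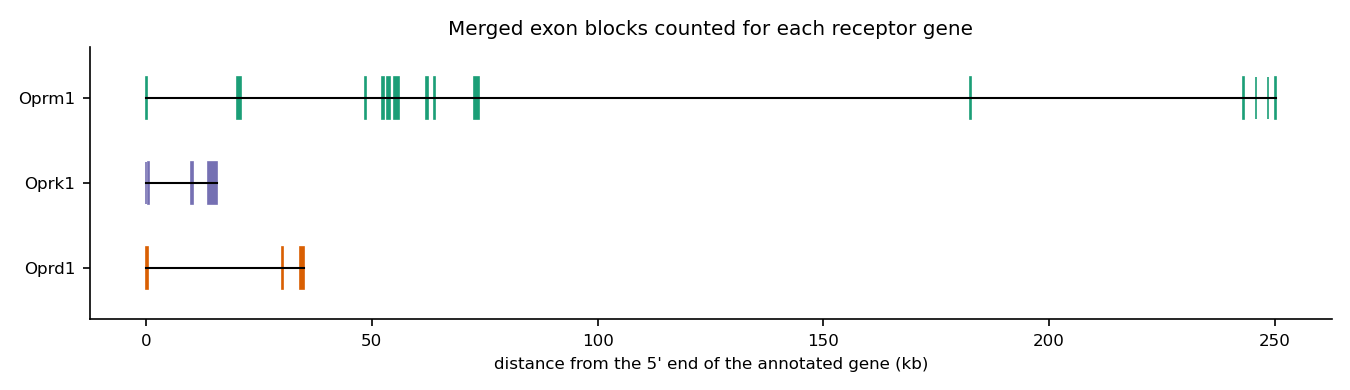
Exon blocks of the 3 receptor genes, drawn to scale as kilobases from the 5′ end of each annotated gene (x axis, 1 row per gene; boxes are merged exons, drawn at least 1 line wide, and lines the gene span). Oprm1 spreads 14 blocks over 250.1 kb, while Oprk1 has 4 exons within 15.6 kb and Oprd1 3 exons within 34.9 kb.

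The start regions of Oprd1 and Oprm1 are shown, as the promoters used here held no entry for Oprk1. RefSeq promoters of build GRCr8 held 1 entry for Oprd1 and 2 starts for Oprm1. For Oprd1 the window is the 250 bases before the start, chr5:149625000-149625249 on the minus strand. For Oprm1 it is chr1:45585733-45585982 on the plus strand. Both are printed 5′ to 3′, with capitals for the E-box CACGTG and the GC box GGGCGG, searched on both strands (the GC box also as CCGCCC), and no match overlaps another.
Oprd1: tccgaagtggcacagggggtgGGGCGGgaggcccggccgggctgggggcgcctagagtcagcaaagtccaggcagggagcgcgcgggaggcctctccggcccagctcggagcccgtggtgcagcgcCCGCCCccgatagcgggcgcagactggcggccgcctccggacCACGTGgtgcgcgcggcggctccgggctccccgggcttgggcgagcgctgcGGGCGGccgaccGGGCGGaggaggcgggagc
Oprm1: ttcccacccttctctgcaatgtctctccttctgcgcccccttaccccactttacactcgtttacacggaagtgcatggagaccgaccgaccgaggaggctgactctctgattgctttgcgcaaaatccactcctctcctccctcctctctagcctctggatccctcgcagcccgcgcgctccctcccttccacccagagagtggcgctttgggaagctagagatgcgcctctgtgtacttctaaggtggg
The Oprd1 window is 79.6% G and C, a share above that of 98.8% of the 33469 promoters in the table, and holds 34 CpG dinucleotides. It contains 1 E-box, 82 bases before the start, and 4 GC boxes. An E-box occurs in 5.59% and a GC box in 30.5% of all promoter windows of this length. The Oprm1 window is 58.4% G and C with 13 CpG and neither motif, and the window of its other start is 36.4% G and C, also with neither. These matches describe the sequence and say nothing of a factor.

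Oprk1 was the most abundant receptor transcript per length and Oprd1 the least abundant in both regions. In CPM, each count taken relative to its library total, per kilobase of exon, the NAc levels were 13.9 ± 3.80 for Oprk1, 6.61 ± 1.12 for Oprm1 and 3.90 ± 2.04 for Oprd1 (mean ± SD, n = 14 libraries). The VTA levels were 12.0 ± 3.33 for Oprk1, 6.12 ± 2.99 for Oprm1 and 1.62 ± 1.29 for Oprd1 (n = 10). The gap between neighbours in this order was larger than the sum of their SDs for Oprk1 and Oprm1 in the NAc and for Oprm1 and Oprd1 in the VTA. It was smaller for Oprm1 and Oprd1 in the NAc and for Oprk1 and Oprm1 in the VTA. Oprk1 came first, Oprm1 next and Oprd1 last in 13 of 14 NAc libraries and 8 of 10 VTA libraries. The 3 libraries with Oprm1 above Oprk1 per length were the NAc and VTA libraries of female fentanyl replicate 2 and the VTA library of female saline replicate 2. They are the same 3 that stood apart on regional genes. Before division by length Oprk1 and Oprm1 were close, with means of 35.8 and 35.1 CPM in the NAc. In the VTA they had means of 30.9 and 32.4 CPM. Their order therefore depends on the exon lengths used, 2582 nt for Oprk1 and 5300 nt merged from 87 exon entries for Oprm1. The abundance of single transcripts was not measured.

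Among the 24888 genes with a count in the NAc, the per-length level of Oprk1 was at percentile 80.8, that of Oprm1 at 67.9 and that of Oprd1 at 59.2. Among the 25332 genes with a count in the VTA, the percentiles were 77.9, 65.9 and 46.2. As a share of the per-length sum of the 3 receptors, Oprk1 made up 57.2 ± 5.02% in saline and 55.8 ± 8.30% in fentanyl NAc libraries (n = 6 and 8). The share of Oprm1 was 24.7 ± 3.77% and 31.3 ± 9.20%, and that of Oprd1 was 18.1 ± 4.66% and 12.8 ± 6.42%. In the VTA the share of Oprd1 was 6.87 ± 3.38% in saline (n = 4) and 9.14 ± 7.96% in fentanyl libraries (n = 6). With the sexes pooled, each of these shares overlapped between saline and fentanyl libraries. Within NAc females it did not for Oprd1, at 20.9% to 22.8% in saline and 2.6% to 16.3% in fentanyl libraries, or for Oprm1, at 23.3% to 23.8% and 25.1% to 51.8%. Within VTA males it did not for Oprk1, at 71.6% to 78.9% in saline and 55.4% to 69.0% in fentanyl libraries, or for Oprm1, at 18% to 23.4% and 27.8% to 31.9%. For scale, the CPM of these groups did not overlap for 29.4% of the genes tested in NAc females and 26.1% in VTA males. That background is for CPM, and none was computed for shares of a sum. The shares of a library add up to a whole, so the gaps of Oprm1 are not separate from those of the other receptors.

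**Figure D2:**
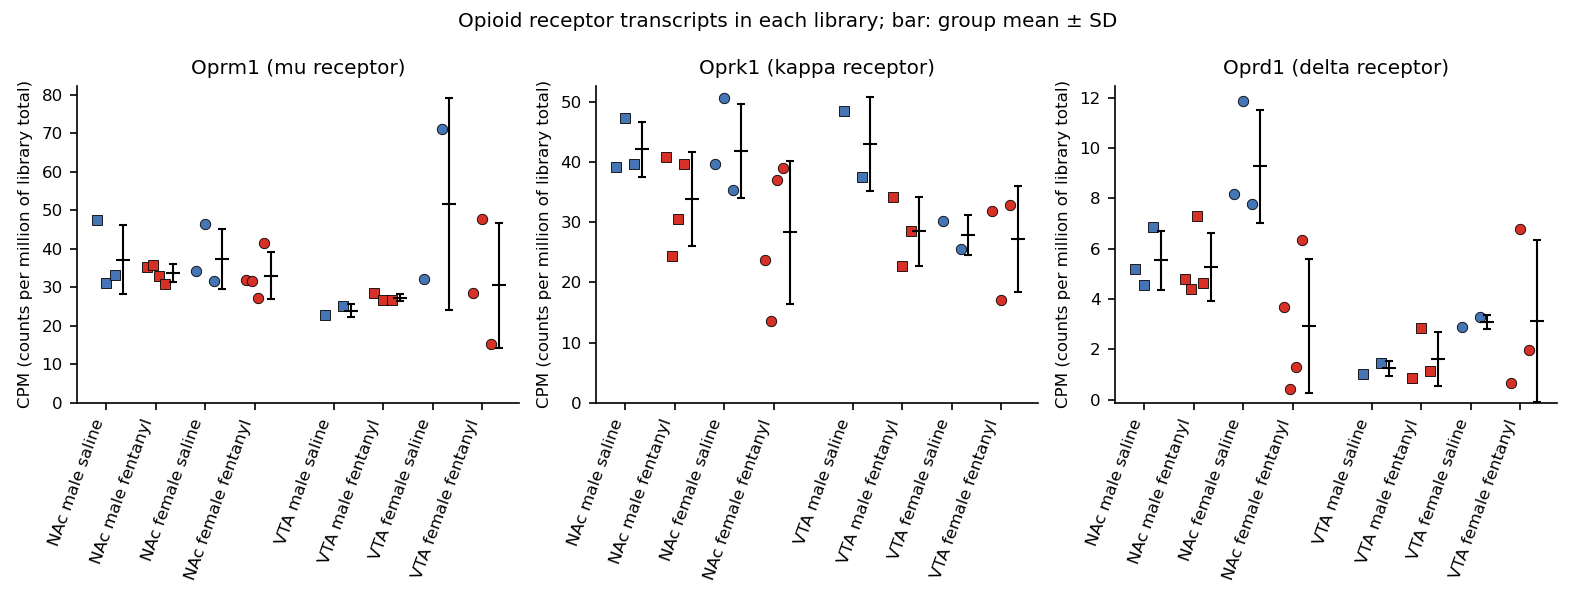
CPM (y axis, linear, a separate scale per panel) of each receptor in all 24 libraries by region, sex and treatment (x axis); squares are males, circles females, blue saline, red fentanyl, and the bar to the right of each group is its mean ± SD. In the right panel the 4 NAc female fentanyl libraries lie at 0.424 to 6.35 CPM, below the 3 NAc female saline libraries at 7.78 to 11.9 CPM.

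The question of the first comparison was whether fentanyl rats differed from saline rats in the NAc, and of the 3 receptors only Oprd1 in females passed the test. In NAc female saline libraries Oprd1 was at 8.17, 11.9 and 7.78 CPM (replicates 1, 2 and 4; 39, 53 and 39 counts). In NAc female fentanyl libraries it was at 3.67, 0.424, 1.30 and 6.35 CPM (replicates 1, 2, 7 and 8; 13, 2, 5 and 26 counts). All 4 fentanyl libraries lay below all 3 saline libraries, and the lowest, at 2 counts, has an exact 95% Poisson interval of 0.0513 to 1.53 CPM, which covers counting error only. CPM of female fentanyl and saline libraries did not overlap for 29.4% of the genes tested.

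Oprd1 thus fell from 9.27 ± 2.26 to 2.94 ± 2.66 CPM in females, to 31.7% of the saline mean. The log2 fold change was -1.48 ± 0.45 (SE, 95% interval -2.42 to -0.53) with an adjusted p of 0.0368 (edgeR quasi-likelihood test, two-sided, Benjamini-Hochberg over 13248 genes). In that comparison 13.5% of all genes tested passed an adjusted p of 0.05, the threshold used throughout. An exact permutation test of the CPM values gave p = 0.0571, the smallest that 4 against 3 libraries allow, and an adjusted p of 0.686 over 12 such comparisons. The call ended without fentanyl replicate 7 (adjusted p 0.0822 by edgeR), without saline replicate 1, 2 or 4 (0.0717, 0.141 and 0.0679) and with the female groups fitted alone (0.122). Over 21 alternatives of the fit the adjusted p ranged from 0.00015 to 0.141, and all 21 gave a negative fold change, from -2.19 to -1.06.

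Properties of the libraries moved with this result. The lowest library, fentanyl replicate 2, was the one at 0.236 on the regional scale; without it the log2 fold change was -1.06 (adjusted p 0.0488 by edgeR). Mitochondrial features took 31.6 ± 3.54% of the counts in female fentanyl and 24.4 ± 2.12% in female saline NAc libraries, ranges of 29.2% to 36.7% and 22.1% to 26.1% that did not overlap. With those features left out of the counts, 13238 genes were tested and the log2 fold change of Oprd1 was -1.48 (adjusted p 0.0363 by edgeR). TMM scaling depends little on so few features, so this value could hardly change. As CPM of the remaining counts Oprd1 was at 0.614 to 8.96 in fentanyl and 10.4 to 16.1 in saline females, and the groups still did not overlap. Both values only take these features out of the totals. Whether the Oprd1 gap goes with the mitochondrial share of a library was not tested.

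In males Oprd1 showed no such gap. The fentanyl libraries were at 4.81, 4.39, 7.31 and 4.62 CPM and the saline libraries at 5.20, 4.55 and 6.86 CPM (n = 4 and 3), so the groups overlapped throughout. Its log2 fold change was -0.10 ± 0.45 (adjusted p 0.989, edgeR), and the interval of -1.05 to 0.85 includes changes close to 2-fold in either direction. In male NAc 0.0% of genes passed by edgeR (0 of 13248, with 850 at an unadjusted p under 0.05; 6 passed by DESeq2 and 0 by voom). The female effect on Oprd1 minus the male effect was -1.38 ± 0.64, with an unadjusted p of 0.046 in the edgeR fit and an adjusted p of 0.340, where 0.77% of genes passed; a sex difference was therefore not shown. Averaged over both sexes the effect on Oprd1 was -0.79 ± 0.32 (log2, adjusted p 0.139), where 7.51% of genes passed. That mean passed with no low-count filter (-0.80, adjusted p 0.0136), by voom (-1.07, 0.0475) and without female fentanyl replicate 8 (-1.14, 0.0193). Saline females and saline males differed by 0.61 ± 0.45 for Oprd1 with an adjusted p of 0.658, where 0.377% of genes passed.

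Oprk1 was lower on average in fentanyl than in saline NAc libraries in both sexes, without passing the test in either. The female saline libraries were at 39.8, 50.6 and 35.3 CPM and the female fentanyl libraries at 23.7, 13.6, 37.0 and 39.1 CPM (replicates as above). Fentanyl replicates 1 and 2 lay below all saline values, replicate 2 being the lowest, and replicates 7 and 8 lay among them. The log2 fold change was -0.37 ± 0.29 (95% interval -1.0 to 0.26; adjusted p 0.429 by edgeR). It was -0.12 without fentanyl replicate 2 and -0.19 without saline replicate 2.
In males the saline libraries were at 39.3, 47.4 and 39.7 CPM (replicates 1, 3 and 4) and the fentanyl libraries at 40.9, 24.4, 30.5 and 39.7 CPM (replicates 1, 2, 3 and 7). Their log2 fold change was -0.34 ± 0.29 (-0.97 to 0.29; adjusted p 0.902), and -0.20 without fentanyl replicate 2 or without saline replicate 3. The mean over sexes was -0.36 ± 0.21 with an adjusted p of 0.316, and the effect in females minus that in males was -0.04 ± 0.41 (adjusted p 0.979).

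Oprm1, which encodes the receptor fentanyl acts on, had the narrowest intervals in the NAc and passed no test there. Female saline libraries were at 34.1, 46.4 and 31.7 CPM and female fentanyl libraries at 31.9, 31.6, 27.1 and 41.5 CPM. Male saline libraries were at 47.4, 31.1 and 33.1 CPM and male fentanyl libraries at 35.3, 35.9, 32.9 and 30.9 CPM. The groups overlapped in both sexes. The log2 fold change was 0.03 ± 0.16 in females (95% interval -0.30 to 0.36; adjusted p 0.933, edgeR) and -0.15 ± 0.16 in males (-0.48 to 0.19; adjusted p 0.920). The mean over sexes was -0.06 ± 0.11 (-0.30 to 0.18; adjusted p 0.800).

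**Figure D3:**
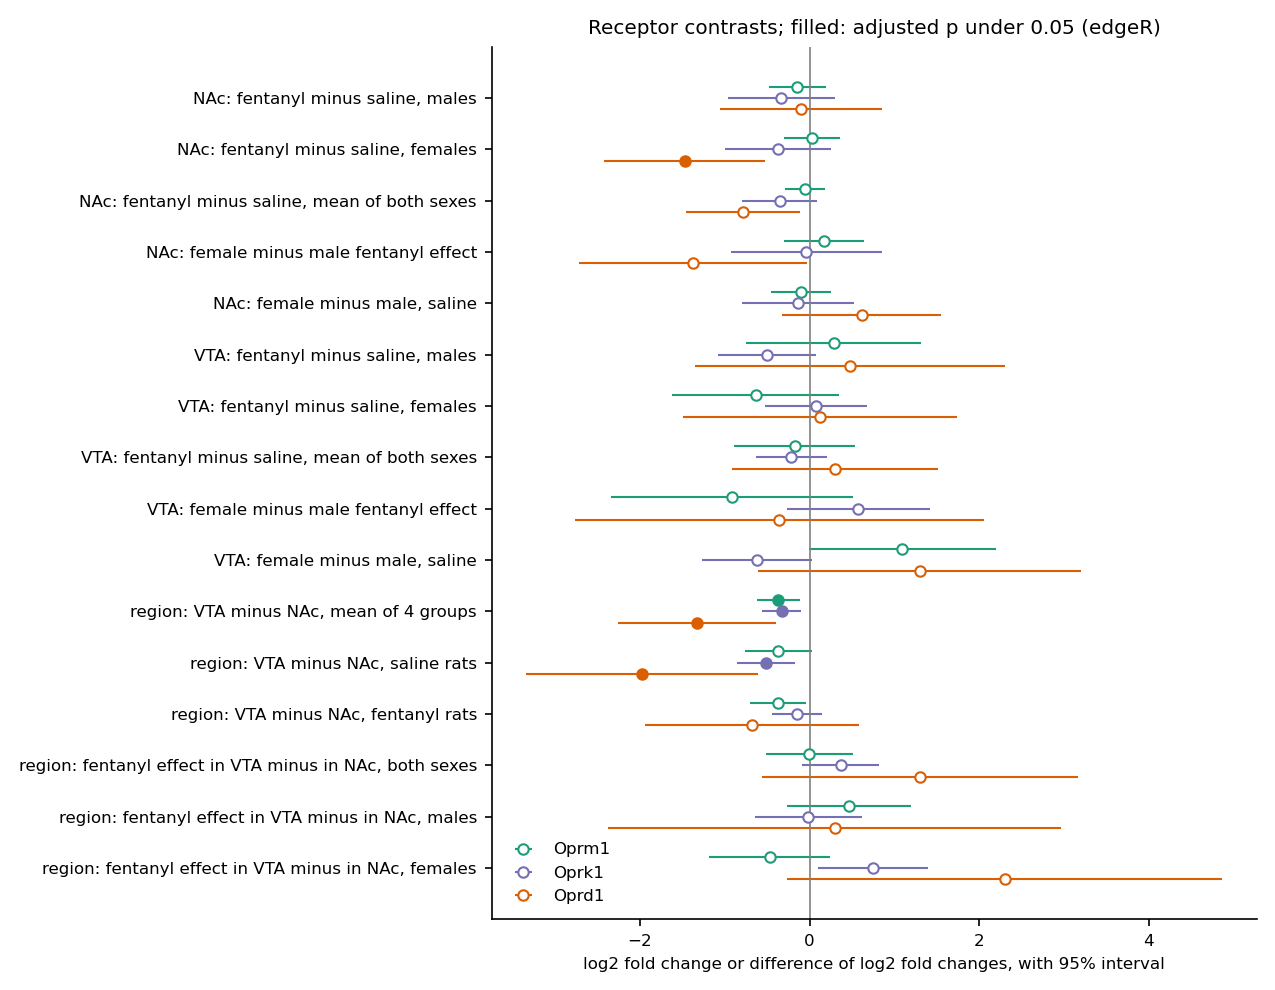
Log2 fold changes, or differences of log2 fold changes, of the 3 receptors (x axis, points with 95% intervals from edgeR) for the 16 contrasts fitted (y axis); filled points have an adjusted p under 0.05. Among the fentanyl contrasts only Oprd1 in NAc females is filled, at -1.48, and the other filled points are VTA minus NAc contrasts.

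In the VTA none of the 3 receptors passed the test between fentanyl and saline rats. The VTA groups were small, so their intervals were wide. In VTA males Oprm1 was at 28.4, 26.8 and 26.7 CPM in fentanyl (replicates 1, 2 and 3) and 22.7 and 25.1 CPM in saline libraries (replicates 1 and 3). Oprk1 in the same libraries was at 34.3, 22.7 and 28.5 CPM in fentanyl and 48.6 and 37.5 CPM in saline libraries. For these 2 receptors the male groups did not overlap, as was so for 26.1% of the genes tested in VTA males. The log2 fold changes were 0.28 ± 0.45 for Oprm1 (95% interval -0.75 to 1.31; adjusted p 0.974 by edgeR) and -0.50 ± 0.27 for Oprk1 (-1.09 to 0.08; adjusted p 0.956). Exact permutation tests gave p = 0.200 for each, the smallest that 3 against 2 libraries allow. Oprd1 was at 0.866, 2.86 and 1.13 CPM in fentanyl and 1.03 and 1.46 CPM in saline males, from 5 to 18 counts, and its log2 fold change was 0.48 ± 0.85.

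In VTA females the 2 rats numbered 2 set the range of Oprm1. It was at 28.5, 47.7 and 15.3 CPM in fentanyl (replicates 1, 2 and 7) and 32.1 and 71.0 CPM in saline libraries (replicates 1 and 2). Replicate 2 was the higher or highest library in each group. The log2 fold change was -0.63 ± 0.43 (95% interval -1.62 to 0.35; adjusted p 0.770 by edgeR). It was -1.10 without fentanyl replicate 2, -0.29 without fentanyl replicate 7, -1.07 without saline replicate 1 and -0.0090 without saline replicate 2. Oprk1 was at 31.8, 17.1 and 32.9 CPM in fentanyl and 30.3 and 25.5 CPM in saline females, where replicate 2 was the lowest library of each group. Its log2 fold change was 0.07 ± 0.28. Oprd1 was at 0.668, 6.79 and 1.98 CPM in fentanyl and 2.89 and 3.29 CPM in saline females, with replicate 2 again highest in each group. Its log2 fold change was 0.12 ± 0.75, and -1.03 without both female rats numbered 2 (adjusted p 1.000). The mean over sexes was -0.18 ± 0.31 for Oprm1, -0.22 ± 0.19 for Oprk1 and 0.30 ± 0.56 for Oprd1.

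Saline females minus saline males in the VTA gave 1.09 ± 0.49 for Oprm1, 1.30 ± 0.88 for Oprd1 and -0.62 ± 0.30 for Oprk1, each with an adjusted p of 1.000 by edgeR, where 0.0556% of genes passed. The Oprm1 difference was 0.46 without both female rats numbered 2, and it passed only with no low-count filter (1.09, adjusted p 0.000939 by edgeR). In that setting 115 of 25332 genes passed, against 8 of 14400 with the filter. For the 4 other VTA comparisons the share of genes that passed by edgeR was 0.0%, with 0 of 14400 in each. At an unadjusted p under 0.05 there were 648 genes in males, 1098 in females, 1271 for the mean over sexes and 476 for the sex difference. DESeq2 called 7, 37, 39 and 1 genes in these comparisons and voom 0 in each.

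The next comparison set the VTA against the NAc within the 10 rats that gave both, and all 3 receptors were lower in the VTA. Averaged over the 4 groups of sex and treatment, the log2 difference was -1.32 ± 0.43 for Oprd1 (95% interval -2.26 to -0.39; adjusted p 0.0172), -0.37 ± 0.12 for Oprm1 (-0.63 to -0.11; 0.0140) and -0.33 ± 0.11 for Oprk1 (-0.56 to -0.10; 0.0132), by edgeR with rat as a block. Most genes differed between the regions: 62.3% of the 14795 tested passed, so 3 receptors of 3 is a count near that background. Oprd1 CPM was lower in the VTA in 8 of 10 rats, with a median ratio of VTA to NAc of 0.299. The ratio was lowest at 0.154 and highest at 16.0, the latter in female fentanyl replicate 2, with 0.424 CPM in its NAc and 6.79 CPM in its VTA library. Oprm1 was lower in 8 of 10 rats with a median ratio of 0.810 (0.479 to 1.53), and Oprk1 in 7 of 10 with a median ratio of 0.910 (0.504 to 1.34).

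Without both female rats numbered 2 the difference over the 4 groups was -1.63 for Oprd1 (adjusted p 0.00046, edgeR) and -0.53 for Oprm1 (0.00035), while Oprk1 at -0.24 no longer passed (0.0788). The Oprd1 call also ended without female saline replicate 2 (-1.24, adjusted p 0.0534) or male saline replicate 1 (-1.25, 0.0683). The Oprm1 call ended without female saline replicate 1 (-0.32, 0.0573) or male saline replicate 1 (-0.28, 0.103). The Oprk1 call ended without female saline replicate 2 (-0.22, 0.117) or male saline replicate 3 (-0.23, 0.0958).

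**Figure D4:**
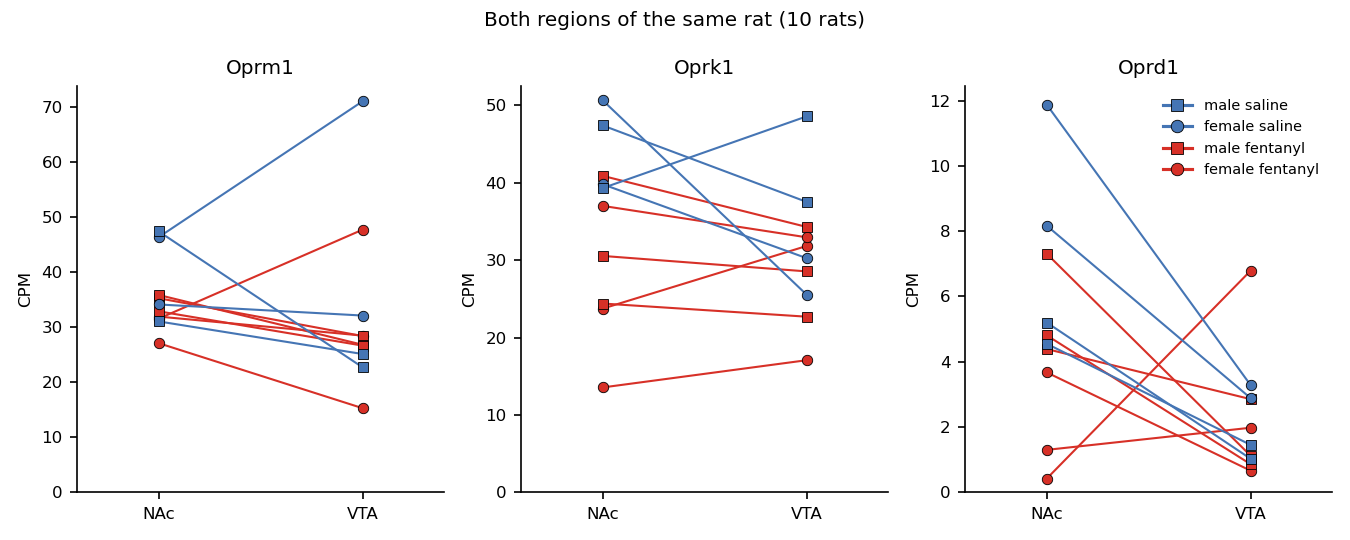
CPM of each receptor (y axis, linear, a separate scale per panel) in the NAc and the VTA (x axis) of the 10 rats that gave both, with a line joining the 2 libraries of a rat; squares are males, circles females, blue saline, red fentanyl. In the right panel 8 of 10 lines fall for Oprd1, and the steepest rise, from 0.424 to 6.79 CPM, is female fentanyl replicate 2.

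Within saline rats the difference between VTA and NAc was -1.97 ± 0.63 for Oprd1 (adjusted p 0.0223 by edgeR) and -0.51 ± 0.16 for Oprk1 (0.0165), while Oprm1 did not pass at -0.37 ± 0.18 (0.118); 45.1% of genes passed. With 4 saline rats in the comparison, the Oprd1 call ended when any 1 of them was left out (adjusted p 0.0651 to 0.126). The Oprk1 call ended without female saline replicate 2 (-0.29, 0.244) or male saline replicate 3 (-0.30, 0.237). Within fentanyl rats no receptor passed, at -0.68 ± 0.58 for Oprd1 (0.347), -0.37 ± 0.15 for Oprm1 (0.0530) and -0.15 ± 0.14 for Oprk1 (0.393), where 54.0% of genes passed. Without female fentanyl replicate 2 the fentanyl rats gave -1.48 for Oprd1 (0.00947) and -0.61 for Oprm1 (0.00104), and both passed. Without female fentanyl replicate 1 the Oprd1 difference was 0.11 (0.863). Oprm1 also passed in fentanyl rats without female saline replicate 1 (-0.39, 0.0455) and in saline rats without female fentanyl replicate 2 (-0.38, 0.0371), fits that share one spread over all rats.

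The fentanyl effect in the VTA minus that in the NAc was tested directly, and no receptor passed. For Oprd1 the difference of the effects was 1.30 ± 0.85 over both sexes, 0.29 ± 1.23 in males and 2.30 ± 1.18 in females (95% interval in females -0.26 to 4.87; adjusted p 0.532 by edgeR). The female value was 0.70 without female fentanyl replicate 2, 3.84 without female fentanyl replicate 1 and 0.41 without both female rats numbered 2, and the value over both sexes was 0.50, 2.07 and 0.35. For Oprk1 it was 0.37 ± 0.21, -0.02 ± 0.30 and 0.75 ± 0.31, the last with an unadjusted p of 0.0257 and an adjusted p of 0.415. That value was 0.32 without female saline replicate 2 and 0.23 without both female rats numbered 2. For Oprm1 it was -0.005 ± 0.24, 0.46 ± 0.34 and -0.47 ± 0.34, the last -0.93 without female fentanyl replicate 2 and -0.15 without female fentanyl replicate 7. In these 3 comparisons 0.0% of genes passed by edgeR (0 of 14795 each, with 840, 493 and 1517 at an unadjusted p under 0.05 over both sexes, in males and in females). DESeq2 called 1, 1 and 18 genes and voom over all 24 libraries 0 in each.

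Relations between the receptors across libraries were computed for 9 pairs, on log2 CPM, and 1 of them passed the adjustment over the 9. In the VTA, libraries with more Oprk1 had less Oprd1 (n = 10, Pearson r = -0.87, permutation p 0.0008, adjusted 0.0076; Spearman rho -0.83, adjusted p 0.0410). The highest Oprd1 library, female fentanyl replicate 2 at 6.79 CPM, was the lowest for Oprk1 at 17.1 CPM, and the highest Oprk1 library, male saline replicate 1 at 48.6 CPM, had 1.03 CPM of Oprd1. On deviations from the group means r was -0.93. Without the 2 libraries farthest from the median of Oprk1 r was -0.79 (n = 8, permutation p 0.0160, adjusted 0.0936), and without both female rats numbered 2 it was -0.69. Leaving out 1 library at a time gave r from -0.90 to -0.76, and r was -0.80 over the 5 male and -0.92 over the 5 female libraries. Most of these Oprd1 values rest on fewer than 20 counts.

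In the NAc the same pair had r = 0.66 over 14 libraries (permutation p 0.0252, adjusted 0.113), and 0.59 on deviations from the group means. Without the 2 libraries farthest from the Oprk1 median r was 0.08, so the size of that relation depended on those libraries. Leaving out the ends of a range can itself lower r. Across the 10 rats, Oprd1 in the NAc and in the VTA had r = -0.44 (permutation p 0.202, adjusted 0.271). On deviations from the group means r was -0.85 (permutation p 0.0078, adjusted 0.0350 over the 9 pairs). That permutation shuffled the 10 deviations freely, although subtracting group means ties them to one another, so its p is too small and decides nothing here. Without the 2 rats farthest from the NAc median the r of the levels was 0.56, and the r of the deviations without them was not computed.

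**Figure D5:**
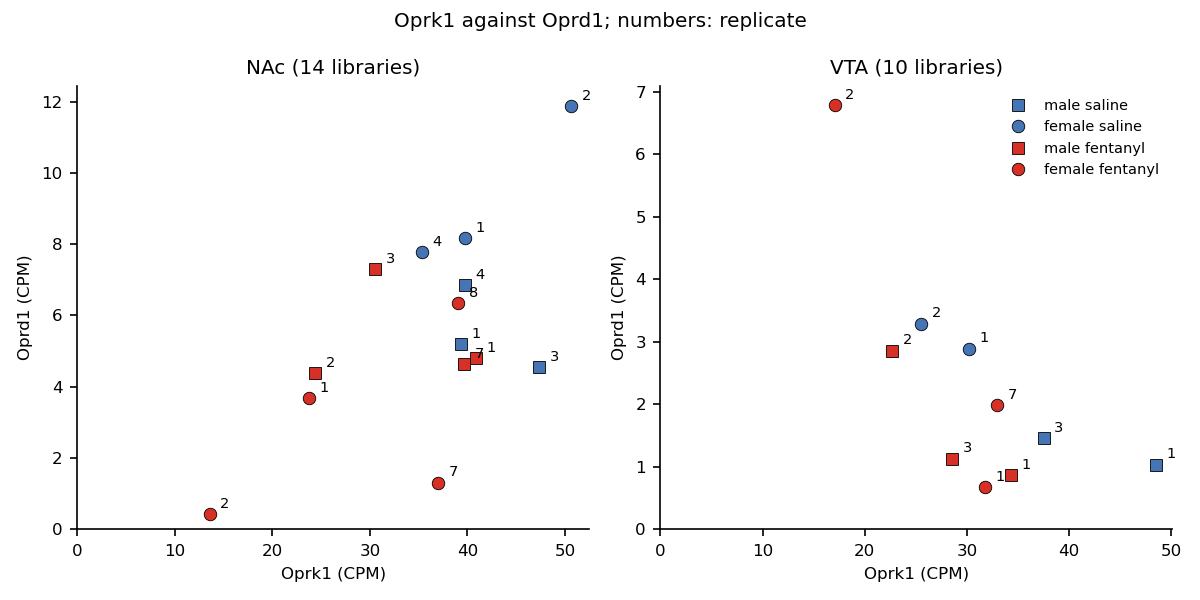
Oprk1 (x axis, CPM) against Oprd1 (y axis, CPM) in the 14 NAc libraries (left) and 10 VTA libraries (right), on linear axes; squares are males, circles females, blue saline, red fentanyl, and the number beside a point is its replicate. In the VTA panel points run from female fentanyl replicate 2 at 17.1 and 6.79 CPM down to male saline replicate 1 at 48.6 and 1.03 CPM.

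The genes with levels most like each receptor were ranked by Pearson r of log2 CPM among genes averaging 5 CPM or more, as a description of libraries that share depth and treatment. In the NAc (n = 14, 10562 genes), 146 genes had an r of at least 0.8 with Oprk1, 81 with Oprd1 and 1 with Oprm1. The closest were ENSRNOG00000007377 to Oprk1 (r = 0.94), ENSRNOG00000005662 to Oprd1 (r = 0.93) and ENSRNOG00000011543 to Oprm1 (r = 0.84). In the VTA (n = 10) the numbers were 197 for Oprk1, 57 for Oprd1 and 51 for Oprm1, and the gene closest to Oprm1 was ENSRNOG00000005662 (r = 0.95), the one closest to Oprd1 in the NAc. That gene itself differed by region, at 122 ± 24.9 CPM in NAc and 37.4 ± 16.2 CPM in VTA libraries. The ranking kept the libraries that stood apart on regional genes, and such numbers were not computed for other genes.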

How the data were processed

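Each library has 1 deposited table of raw, unnormalized counts by Ensembl gene ID. Per the submitters' processing notes the tools were STAR 2.5.2b, Subread 1.5.2 with featureCounts, Trimmomatic 0.36 and DESeq2. The sources used here do not give their roles, the genome build or the strand setting. Per the labels' protocols RNA was column purified and ribosomal RNA depleted. Groups follow the labelled region, sex and treatment, and replicates are separate rats by their animal code.

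CPM are counts divided by the library total and scaled to a common total, and CPM per kb uses the deposited gene length. Each region was fitted with edgeR 4.0.16 in R 4.3.3 (filterByExpr, TMM, robust quasi-likelihood, 4 groups of sex and treatment). The regions were compared over 20 libraries with rat as a block, which the animal code gives. All p-values were adjusted by Benjamini-Hochberg over all genes tested; all 3 receptors passed the filter in the fits reported. Oprd1 did not pass it in VTA males fitted alone, and DESeq2 gave no adjusted p for Oprd1 in 3 comparisons. The code was tested on simulated data. Alternatives were RLE size factors, DESeq2 1.42.0, limma 3.58.1 voom, no filter, no mitochondrial features, the animal number as a block, 1 sex alone and leaving out each library or rat. Added after seeing the data were exact permutation tests and fits without the female rats numbered 2. Relations used a prior count of 2 and 100000 resamples in scipy 1.17.1.

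The members, lists and tests were chosen with earlier results of these data known. The naming rule took all 3 receptors and the genes most like each. Its condition of a known symbol was dropped, and the opioid pathway list and the cell type markers of each region were not analysed here, since the tables used pair no ID with a name.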

Additional observations from a re-analysis of the deposited data

Results flagged for a closer look

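Oprd1 in NAc male fentanyl libraries was marked because 1 library lay far from the others of its group: replicate 3 was at 7.31 CPM (28 counts), while the other 3 lay at 4.39 to 4.81 CPM. Such a gap was looked for in 6 receptor groups of 4 libraries, and chance alone marks about 1 group in 20. Without that library the male log2 fold change was -0.28 in place of -0.10, and neither passed the test.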

How the results depend on the processing

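Changing a single choice at a time gave 835 values that held. For tests and relations that means the same direction and side of the threshold, and for group levels per length a shift under an SD. Of the rest, 39 crossed the threshold, 53 changed sign and 20 levels moved by more than an SD. No value that changed sign was called before or after the change. The cause of each shift below was not tested. Counts per library limit Oprd1 most, at 2 to 53, and with 2 to 4 rats a group an exact test could not pass 0.05.

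On average, rats of different groups that share a number did not deviate together. Their residuals correlated at -0.0146 on average in the NAc (12 pairs, from -0.130 to 0.185). In the VTA the average was 0.0014 (10 pairs, from -0.288 to 0.206). Pairs with different numbers ran from -0.144 to 0.184 in the NAc and from -0.206 to 0.288 in the VTA. An average near 0 does not exclude shared deviations in a single pair. The VTA libraries of both female rats numbered 2 lay on the same side of their groups for each receptor. The animal number as a replicate block has no stated basis. With this replicate block Oprd1 in NAc females was -2.08 (adjusted p 0.0225 by edgeR) and Oprk1 there -0.87 (0.0903). Uncalled effects changed sign under the block: Oprd1 in NAc males (0.031), in VTA males (-0.13), VTA females (-0.063), their mean (-0.094) and the VTA sex difference (0.063), Oprm1 in NAc females (-0.083) and Oprk1 in VTA females (-0.095). With no replicate block for rat, VTA minus NAc was -0.33 for Oprm1 and -0.34 for Oprk1 over the 4 groups and -0.52 for Oprk1 in saline rats, none of them called; the Oprm1 difference of effects was 0.019.

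The females alone gave -1.47 for Oprd1 in the NAc and lost the call. No low-count filter added calls for the NAc mean of Oprd1 (-0.80), Oprm1 between saline sexes in the VTA (1.09) and Oprm1 between regions in fentanyl rats (-0.35). Genes that passed in these fits were 1344 of 24888, 115 of 25332 and 7936 of 26749. With the filter they were 995 of 13248, 8 of 14400 and 7986 of 14795. By voom the NAc mean of Oprd1 was called (-1.07), and Oprd1 changed sign in VTA females (-0.35) and the VTA mean (-0.012). By voom over all 24 libraries Oprk1 lost its regional calls (-0.36 over 4 groups, -0.44 in saline rats). Without the female rats numbered 2, Oprd1 was -1.03 in VTA females and -0.28 for the VTA mean. For regions the same setting gave Oprk1 -0.24 over 4 groups and -0.29 in saline rats, both no longer called. It gave new calls for Oprm1 (-0.47 in saline, -0.58 in fentanyl rats) and Oprd1 (-1.46 in fentanyl rats). By permutation of CPM the log2 ratio was -1.66 for Oprd1 in NAc females (exact p 0.0571), -0.18 for Oprm1 in NAc females and -0.033 for Oprk1 in VTA females. Without the 2 samples farthest on the x axis r was -0.043 for NAc Oprm1 and Oprk1, -0.21 for Oprk1 across regions and 0.56 for Oprd1 across regions.

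Leaving out 1 library or rat gave these ranges of log2 fold changes. In the NAc, males ran from -0.22 to 0.0082 for Oprm1, -0.45 to -0.20 for Oprk1 and -0.28 to 0.098 for Oprd1, and females from -0.073 to 0.24 for Oprm1, -0.54 to -0.12 for Oprk1 and -2.19 to -1.06 for Oprd1. The NAc mean ran from -0.11 to 0.045 for Oprm1 and -1.14 to -0.58 for Oprd1, the sex difference of Oprk1 from -0.20 to 0.22, and saline females minus males from -0.31 to 0.057 for Oprm1 and -0.32 to 0.0069 for Oprk1. In the VTA, Oprd1 ran from -0.20 to 0.80 in males, -1.08 to 0.56 in females, -0.30 to 0.52 for the mean and -1.56 to 0.31 for the sex difference; in females Oprk1 ran from -0.10 to 0.32 and Oprm1 from -1.10 to -0.0090, and the Oprm1 mean from -0.41 to 0.14. Between regions over 4 groups Oprm1 ran from -0.49 to -0.28, Oprk1 from -0.44 to -0.22 and Oprd1 from -1.73 to -0.93. In saline rats the ranges were -0.50 to -0.20, -0.71 to -0.29 and -2.11 to -1.81. In fentanyl rats Oprm1 ran from -0.61 to -0.21 and Oprd1 from -1.48 to 0.11. Differences of effects ran from -0.23 to 0.16 for Oprm1 and 0.50 to 2.07 for Oprd1 over both sexes, from 0.70 to 3.84 for Oprd1 in females, and in males from -0.44 to 0.40 for Oprk1 and -0.46 to 0.64 for Oprd1.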

Other observations

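The spread of Oprm1 between rats was widest in VTA females. In the VTA its coefficient of variation was 53.4% for female fentanyl (n = 3) and 53.3% for female saline libraries (n = 2). For VTA males it was 3.52% in fentanyl (n = 3) and 7.11% in saline libraries (n = 2). Counting alone gives 6.0% to 8.61% in the VTA, and both male values lay below their own counting values of 7.95% and 8.61%. In the NAc the coefficient was 6.76% and 23.9% in males and 18.3% and 21.0% in females, so the sexes overlapped there. The difference between the sexes in the VTA was not tested, and both VTA female groups hold a library that stood apart on regional genes. The biological coefficient of variation fitted by edgeR was 13.5% for Oprm1 in the NAc and 33.1% in the VTA, where genes of the same abundance had 12.5% and 16.9%. For Oprk1 it was 25.8% and 20.9%, against 12.5% and 17.1%. For Oprd1 it was 34.7% and 52.4%, against 20.6% and 38.4%, and counting alone gives 15.1% to 37.8% at its counts.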
